A study of Mus musculus with 6 samples.

Results

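The nuclear-encoded subunits of the respiratory chain and the ATP synthase were examined in mouse fibroblasts whose RNA polymerase II carried either an 8KR or a wild type RPB1. Members were taken from the array's platform annotation by name: probe sets with a single gene symbol of the Nduf, Sdh, Uqcr, Cyc1, Cox4 to Cox8 or Atp5 families. The names matched 106 probe sets of 82 genes, out of 19938 genes on the array, and the probe set with the brightest average over all 6 arrays stood for its gene. Complex I had 35 of these genes, complex II had 4, complex III had 9, and complexes IV and V had 17 each. The rule used names only and no measured value, but the gene set was chosen with earlier results of these data known.

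The cells were NIH/3T3, an immortalized mouse fibroblast line, stably transfected with HA-tagged mouse RPB1, the catalytic subunit of RNA polymerase II. In 8KR cells, every lysine at position 7 of the repeats in the C-terminal domain of the tagged RPB1 was replaced by arginine, which keeps the positive charge but cannot be acetylated, while wild type cells carried the tagged protein with its lysines. Both groups were grown in DMEM with bovine calf serum and α-amanitin, which blocks the cells' own polymerase, so the wild type cells are a transfected, α-amanitin-treated control and not untreated NIH/3T3 cells. Total RNA of 3 biological replicates per group was hybridized to Affymetrix Mouse Gene 1.0 ST arrays, and no source used here says whether the replicates of a group came from 1 clone or 1 transfection, so p-values measure the spread between these samples only.

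The respiratory chain consists of large protein complexes in the inner mitochondrial membrane. Complex I (NADH dehydrogenase) and complex II (succinate dehydrogenase) pass electrons to ubiquinone, complex III passes them on to cytochrome c, complex IV reduces oxygen, and complex V uses the proton gradient to make ATP. All complexes except complex II combine subunits encoded in mitochondrial DNA with subunits encoded in the nucleus, and only the nuclear genes depend on RNA polymerase II. Most of these genes are expressed in nearly all cell types, fibroblasts included, whereas some subunits of complex IV have a further isoform restricted to tissues such as muscle, lung or testis.

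Promoters of such genes are known for sites of the transcription factors Nrf1, Gabpa, Esrra and Yy1, and 4 promoters of members discussed below are shown because they carry, or lack, the letters of these sites. RefSeq promoters of assembly GRCm38.p6, running from 250 bases before to 50 bases after a gene's start, were found for 66 of the 82 members, as 71 windows. The letters searched on both strands were GCGCATGCG for Nrf1, CCGGAAGT for Gabpa and other ETS factors, AAGGTCA for Esrra and AAGATGGCG for Yy1, and capitals mark a match in either orientation. Uqcr11, at chr10:80406772-80407071 on the minus strand, and Atp5l, at chr9:44920693-44920992 on the minus strand, each hold matches to 2 of the motifs (Nrf1 and Gabpa in Uqcr11, Nrf1 and Esrra in Atp5l). Sdhd, at chr9:50603800-50604099 on the minus strand, holds a match for Esrra, and Atp5md, at chr19:47090598-47090897 on the minus strand, holds none.
Uqcr11: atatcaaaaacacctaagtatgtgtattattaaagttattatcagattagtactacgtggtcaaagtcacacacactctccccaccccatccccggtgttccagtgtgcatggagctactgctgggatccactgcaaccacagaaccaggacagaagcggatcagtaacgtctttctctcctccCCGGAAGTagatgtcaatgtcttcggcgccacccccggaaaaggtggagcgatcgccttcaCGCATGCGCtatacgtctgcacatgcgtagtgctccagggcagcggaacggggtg
Atp5l: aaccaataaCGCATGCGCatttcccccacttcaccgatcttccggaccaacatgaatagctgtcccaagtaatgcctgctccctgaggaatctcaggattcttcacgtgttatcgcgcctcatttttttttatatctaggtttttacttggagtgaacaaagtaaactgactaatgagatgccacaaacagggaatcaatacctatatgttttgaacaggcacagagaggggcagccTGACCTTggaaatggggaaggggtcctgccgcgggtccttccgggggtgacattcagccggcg
Sdhd: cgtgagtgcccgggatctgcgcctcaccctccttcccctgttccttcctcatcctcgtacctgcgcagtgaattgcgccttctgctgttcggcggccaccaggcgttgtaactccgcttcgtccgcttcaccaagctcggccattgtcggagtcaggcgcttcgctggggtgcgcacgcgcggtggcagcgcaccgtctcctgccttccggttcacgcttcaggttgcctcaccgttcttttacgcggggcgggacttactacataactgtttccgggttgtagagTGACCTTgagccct
Atp5md: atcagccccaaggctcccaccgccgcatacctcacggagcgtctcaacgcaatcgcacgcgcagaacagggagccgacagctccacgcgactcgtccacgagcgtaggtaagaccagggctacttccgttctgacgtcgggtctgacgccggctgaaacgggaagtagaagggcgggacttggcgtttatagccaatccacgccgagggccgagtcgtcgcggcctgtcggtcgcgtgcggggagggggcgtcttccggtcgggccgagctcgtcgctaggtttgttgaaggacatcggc

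Matches to the Nrf1 letters were present in 8 of the 71 member promoters (11.3%) and in 1.75% of all 32851 promoters of the same length. Yy1 letters were present in 7 (9.86%), against 1.40% of all promoters, Esrra letters in 7 (9.86%), against 4.72%, and Gabpa letters in 5 (7.04%), against 3.89%. Among members with the Yy1 letters were Ndufa9, Ndufs4, Ndufs6 and Ndufs7 of complex I, and among those with the Nrf1 letters were Ndufa8 and Ndufa11 of complex I, Uqcrc1 of complex III and Cox6a1 of complex IV. Of the 5 members with a called change (defined below) for which a promoter was found, Uqcr11 and Sdhd had a match and Atp5md, Atp5pb and Cox5a had none. A match describes letters in a window and is no evidence of binding.

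Values are the deposited log2 intensities, and differences are 8KR minus wild type on the log2 scale, so that a negative difference means a lower level in 8KR cells. All probe sets with a mean above 3.0 in at least 1 group were fitted together with limma, which left 81 of the 82 members and 17145 genes in all. A gene was called at a Benjamini-Hochberg adjusted p under 0.05, taken over all probe sets tested. Median intensities of the arrays were 4.53 to 4.54 in 8KR cells and 4.49 to 4.52 in wild type cells, and arrays correlated at 0.982 to 0.984 within groups and 0.975 to 0.978 between them. The fibroblast markers Col1a1, Col1a2, Vim, Thy1, Pdgfrb and S100a4 had mean log2 intensities of 7.52 to 11.9 in 8KR cells and 7.71 to 12.1 in wild type cells. The 16 markers of leukocytes, epithelium, endothelium, muscle, adipocytes and neurons had means of 2.42 to 5.85 in 8KR cells and 2.40 to 6.11 in wild type cells. Of these, Ptprc, Epcam, Ucp1, Cidea and Adipoq were near or below the filter, Acta1, Krt8, Plin1 and Ckm were the highest, and no marker was called.

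Of the 81 members tested, 7 fell in 8KR cells and 0 rose, and 74 were not called. The share that fell, 8.64%, stands beside 3.06% of all genes called lower and 2.33% of all genes called higher, and beside 6.53% called lower among the 1992 genes with a mean above 8.0, the range where 67 of the members lie. The called members came from all 5 complexes: Ndufb9 of complex I, Sdhd of complex II, Uqcr11 of complex III, Cox5a and Cox6c of complex IV, and Atp5md and Atp5pb of complex V. Their falls ran from 0.35 to 0.74 on the log2 scale. The share called was 2.86% in complex I, below the 3.06% of all genes called lower. It was 11.1% to 25% in complexes II to V, which had only 4 to 17 tested genes each. Standard errors of the members were 0.07 to 0.18 with a median of 0.08.

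Small negative differences were spread widely over the members. In 61 of 81 members (75.3%) the 8KR mean was the lower one, against 48.2% of all genes, 52.4% of genes with a mean above 8.0 and 57.4% of the 352 genes with a mean above 10.0. The median difference over the members was -0.15, against 0.01 over all genes, -0.01 over genes above 8.0 and -0.03 over genes above 10.0. For 45 members (55.6%) all 3 8KR arrays lay below all 3 wild type arrays, against 14.7% of all genes and 30.6% of genes with a mean above 8.0. Such separation was more frequent in bright genes: above 10.0 it held for 40.3% of genes and for 72.2% of the 36 members there. The opposite, all 8KR arrays above all wild type arrays, held for 3 members (3.70%). It held for 15% of all genes, 26.4% of genes above 8.0 and 23.3% of genes above 10.0. Fewer cells with much of this RNA and less of it per cell cannot be told apart in bulk RNA.

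**Figure D1:**
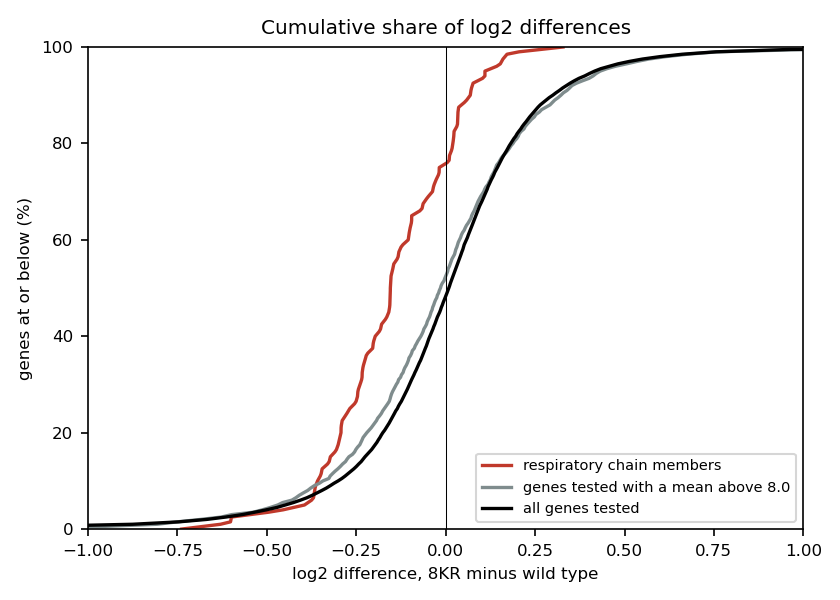
Cumulative share of genes (vertical axis, percent) at or below each log2 difference, 8KR minus wild type (horizontal axis), for the 81 respiratory chain members (red), the 1992 genes tested with a mean above 8.0 (grey) and all 17145 genes tested (black). The members' curve lies left of both others over most of its range, with 75.3% of members below 0 against 48.2% of all genes, but it does not reach the far left tail, since its lowest value is -0.74.

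The per-array levels showed the same split. After each gene's mean over the 6 arrays was subtracted, the median over the members was -0.08, -0.07 and -0.05 on the 8KR arrays and 0.05, 0.08 and 0.12 on the wild type arrays. Complex III stood at -0.12, -0.13 and -0.12 on the 8KR arrays and at 0.07, 0.11 and 0.15 on the wild type arrays, and complex V at -0.15, -0.08 and -0.08 against 0.08, 0.08 and 0.13. The medians of the 2 groups did not overlap in any complex. Nor did they over the 1992 genes with a mean above 8.0, where the values were smaller. These stood at -0.016, -0.003 and -0.001 on the 8KR arrays and at 0.011, 0.002 and 0.007 on the wild type arrays. Complexes I and II came closest: in complex I the highest 8KR array was at -0.01 and the lowest wild type array at 0.003, and in complex II the highest 8KR array was at 0.02 and the lowest wild type array at 0.05. Members are not independent replicates, and these medians are given as a description.

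**Figure D2:**
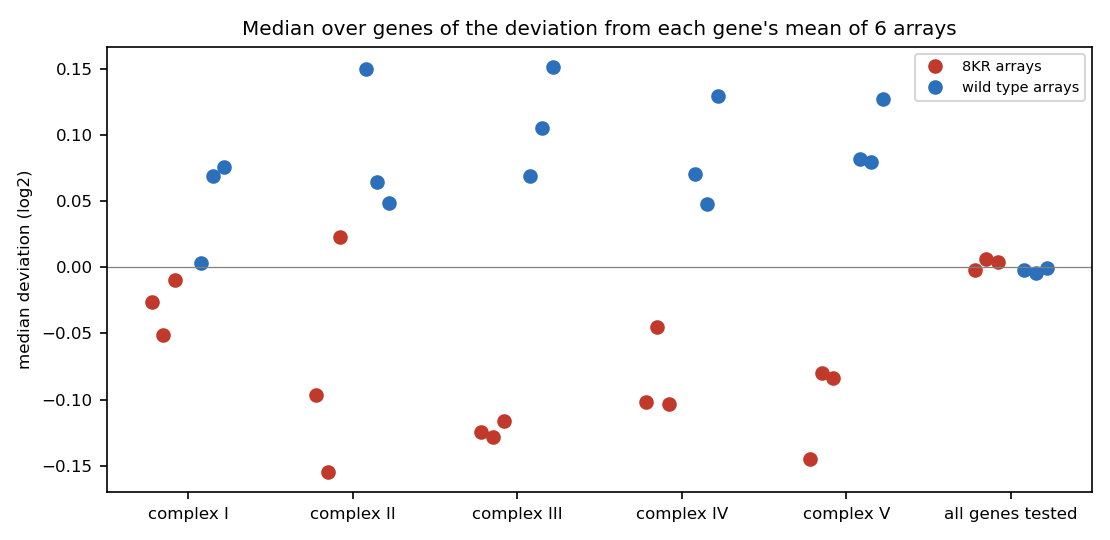
Median over the tested genes of each complex of the deviation from each gene's mean over the 6 arrays (vertical axis, log2), with 1 point per array, 8KR arrays in red left of wild type arrays in blue. In every complex the 3 8KR arrays lie below the 3 wild type arrays, while for all genes tested the 6 arrays lie between -0.004 and 0.006. For genes with a mean above 8.0, which are not drawn, the groups did not overlap either, between -0.016 and 0.011.

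Some probe sets that carry a member's symbol may have been designed on a near-identical copy elsewhere in the genome, which cannot be settled without probe positions. Probe set identifiers run in chromosome order, and 96.8% of the 21698 placed single-symbol probe sets are surrounded by identifiers of genes of their own chromosome. By this measure 23 of the 106 member probe sets, and the representing probe sets of 8 members, are filed among genes of another chromosome. These 8 are Ndufb11, Uqcr11, Cox7b, Cox7a2l, Atp5g2, Atp5l, Atp5md and Atp5pb, and each also has a probe set filed with its own chromosome. Their signals may mix a gene and a copy of it and are uncertain to that extent. With the brightest probe set of the gene's own chromosome in every case, an alternative chosen after seeing the data, 5 members were called instead of 7 (Uqcr11 and Atp5pb were not), while 61 of 81 members remained lower and the median stayed at -0.15. All 16 members with more than 1 probe set had probe sets of 1 sign, although such probe sets share sequence and are not independent.

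**Figure D3:**
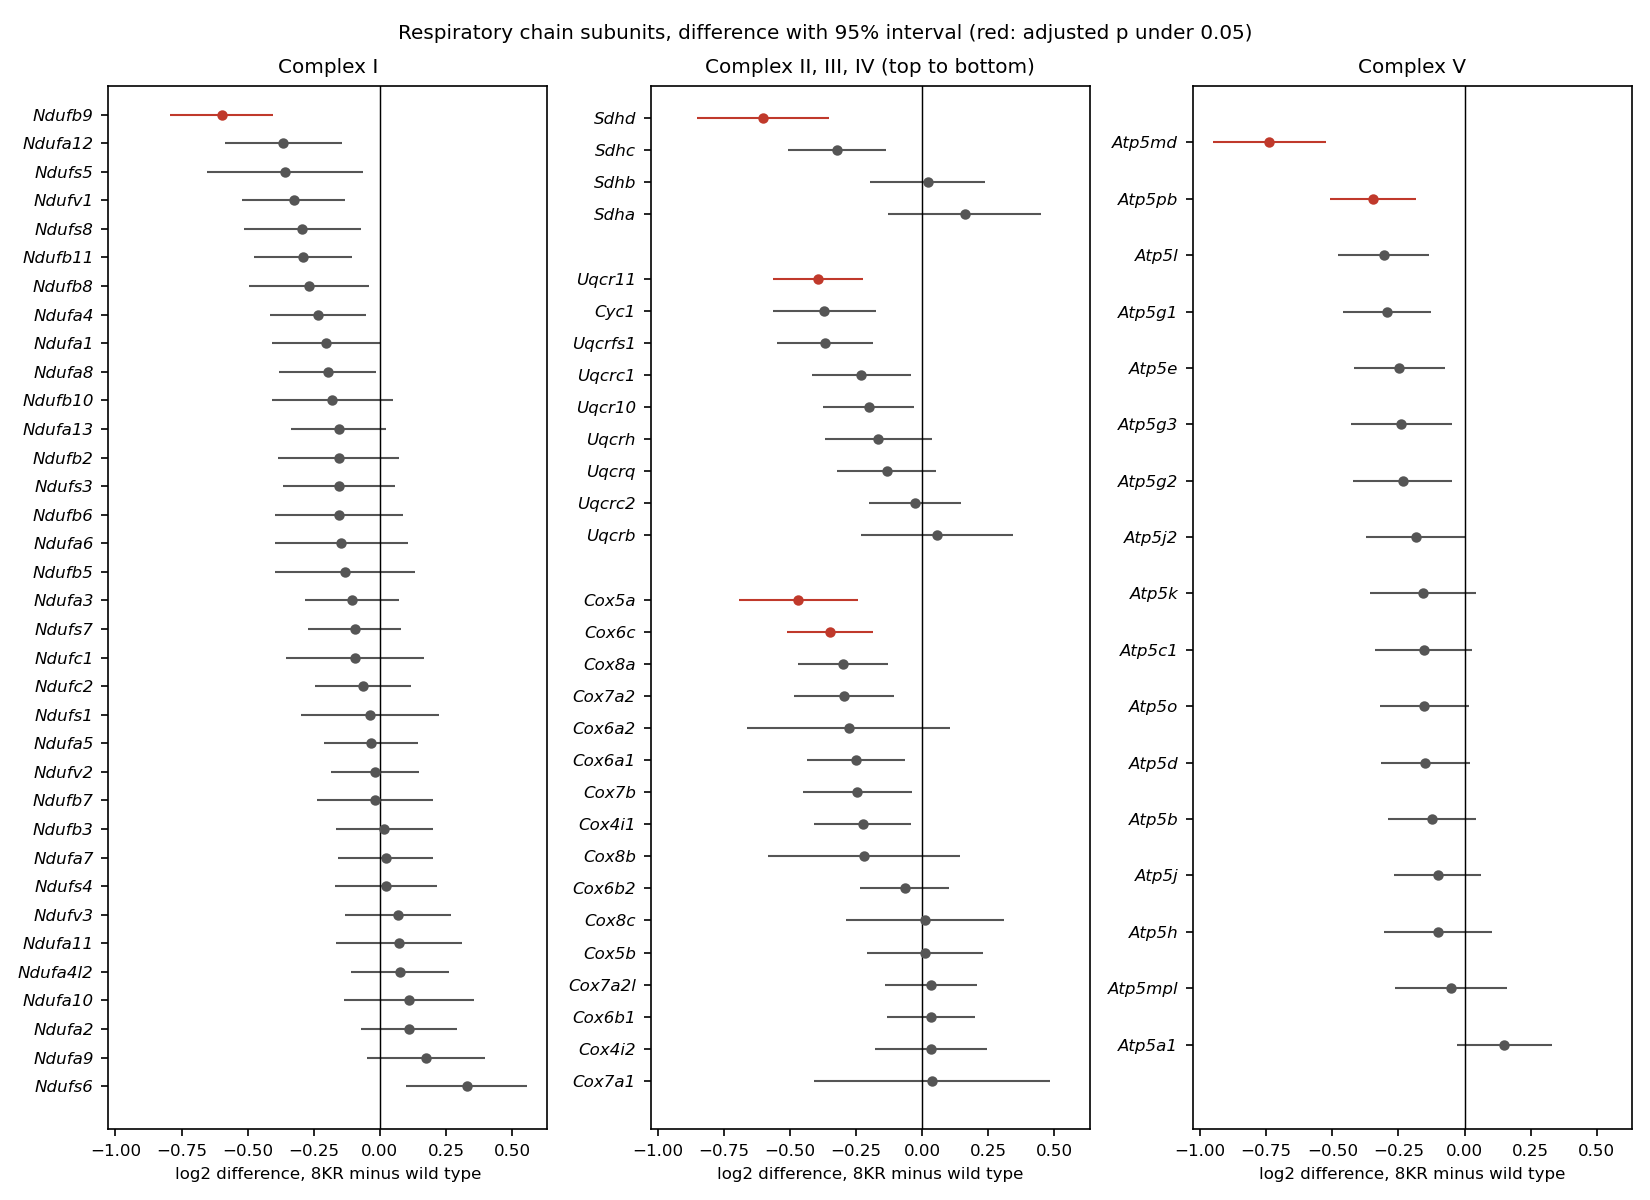
Log2 difference, 8KR minus wild type (horizontal axis), of each of the 81 tested members by complex (vertical axis), with 95% intervals from limma as bars and called members in red. Most points lie left of 0, and the 7 called members range from -0.74 (Atp5md) to -0.35 (Atp5pb and Cox6c).

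Complex I, which takes electrons from NADH, had a median difference of -0.10, with 25 of its 35 genes lower in 8KR cells. Of the 35, 1 was called (2.86%, against 3.06% of all genes called lower). Ndufb9, an accessory subunit of the membrane arm, had log2 intensities of 9.36, 9.31 and 9.47 in 8KR cells, against 9.95, 9.96 and 10.04 in wild type cells. The arrays of the groups were well separated. Ndufb9 fell by 0.60 on the log2 scale, or fell by 34.0% in intensity (95% interval -0.79 to -0.40, limma's adjusted p = 0.0177).

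The core subunits of complex I, which are conserved from bacteria and hold its flavin and iron-sulfur clusters, were all lower in mean: 6 of 6, with a median of -0.12 and 0 called by limma, and with 2 (Ndufv1 and Ndufs8) at an unadjusted p under 0.05. Ndufv1, which binds the flavin that accepts electrons from NADH, had 8.17, 8.28 and 8.10 in 8KR cells against 8.48, 8.49 and 8.56 in wild type cells (difference -0.33, limma's adjusted p = 0.0859). Ndufs8, an iron-sulfur subunit on the path to ubiquinone, differed by -0.29. Ndufs3 (-0.15), Ndufs7 (-0.10), Ndufs1 (-0.04) and Ndufv2 (-0.02) differed by less, and the arrays of Ndufs1 and Ndufv2 overlapped.

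The accessory subunits of complex I, which stabilize and assemble the core, were more mixed, with 18 of 27 lower and a median of -0.10. Besides Ndufb9, unadjusted p under 0.05 was reached on the lower side by Ndufa12 (-0.36), Ndufs5 (-0.36), Ndufb11 (-0.29), Ndufb8 (-0.27) and Ndufa8 (-0.20), with adjusted p of 0.0885 to 0.224 in limma. Ndufs6, a zinc-binding subunit needed late in assembly of the NADH-oxidizing module, showed the opposite. Its intensities were 9.33, 9.38 and 9.37 in 8KR cells, against 8.91, 9.19 and 8.99 in wild type cells. All 8KR arrays were above the wild type arrays, yet the difference of 0.33 was not called (limma's adjusted p = 0.124). Ndufa9, a subunit near the ubiquinone site, was the other complex I gene with all 8KR arrays higher (0.17, limma's adjusted p = 0.365). Ndufc2, Ndufa5, Ndufb7, Ndufb3, Ndufa7 and Ndufs4 had overlapping arrays and differences between -0.06 and 0.02.

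Ndufa4 is named for complex I but is now assigned to complex IV, and it was the brightest gene under the Nduf names. It had 11.52, 11.53 and 11.60 in 8KR cells, against 11.72, 11.80 and 11.84 in wild type cells, a difference of -0.23 without overlap of the arrays (limma's adjusted p = 0.157). Its paralog Ndufa4l2, known as a gene induced by low oxygen, was dim, with means of 4.19 in 8KR cells and 4.12 in wild type cells and overlapping arrays. Because genes were sorted by name, the totals given for complex I include both genes, and those for complex IV do not.

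Complex II, which oxidizes succinate and belongs to the citric acid cycle as well, was divided by the role of its subunits. Sdhd, a membrane anchor that binds heme and ubiquinone, had 8.82, 8.64 and 8.65 in 8KR cells, against 9.33, 9.43 and 9.16 in wild type cells. The groups did not overlap, and Sdhd fell by 0.60 on the log2 scale (95% interval -0.85 to -0.35, limma's adjusted p = 0.0335), or fell by 34.1% in intensity. Sdhc, the other anchor, had 9.96, 9.90 and 10.02 in 8KR cells, against 10.31, 10.31 and 10.22 in wild type cells, a difference of -0.32 that was not called (limma's adjusted p = 0.0750). The catalytic subunits had overlapping arrays: the flavoprotein Sdha differed by 0.16 (95% interval -0.13 to 0.45) and the iron-sulfur subunit Sdhb by 0.02 (95% interval -0.20 to 0.24). Whether anchors and catalytic subunits differ from each other was not tested.

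Complex III, which carries electrons from ubiquinol to cytochrome c, had 8 of 9 genes lower and a median of -0.20. In 7 genes (77.8%) all 8KR arrays lay below all wild type arrays, against 30.6% of genes with a mean above 8.0. Uqcr11, a small accessory subunit, had 10.44, 10.54 and 10.52 in 8KR cells, against 10.91, 10.90 and 10.87 in wild type cells. It fell by 0.39 on the log2 scale (95% interval -0.57 to -0.22, limma's adjusted p = 0.0381). On the second probe set, filed with the gene's own chromosome, the difference was -0.30 with no overlap and no call (limma's adjusted p = 0.0893).

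The redox subunits of complex III came just short of a call. Cyc1, which is cytochrome c1, had 8.31, 8.19 and 8.31 in 8KR cells, against 8.71, 8.64 and 8.58 in wild type cells (difference -0.37, limma's adjusted p = 0.0620). Uqcrfs1, the Rieske iron-sulfur protein, had 8.24, 8.18 and 8.30 in 8KR cells, against 8.55, 8.63 and 8.63 in wild type cells (difference -0.37, limma's adjusted p = 0.0529). Both were separated between groups by more than the spread within either. Of the core proteins, which have no redox centre, Uqcrc1 differed by -0.23 and Uqcrc2 by -0.03, and the arrays of Uqcrc2 overlapped. Of the other small subunits, Uqcr10 (-0.20), Uqcrh (-0.17) and Uqcrq (-0.13) had arrays that did not overlap. For Uqcrh the groups nearly met, with the highest 8KR array at 11.4676 and the lowest wild type array at 11.4679. Uqcrh, a hinge protein at the cytochrome c site, was the brightest of complex III at 11.40, 11.47 and 11.34 in 8KR cells against 11.47, 11.63 and 11.62 in wild type cells. Uqcrb, which lines the ubiquinone site, was the only complex III gene with a higher mean in 8KR cells (0.06, overlapping arrays).

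Complex IV, cytochrome c oxidase, had a median difference of -0.22, with 10 of 16 tested genes lower, and its genes fell into widely expressed and tissue-restricted isoforms. The 9 widely expressed subunits, with means of 10.0 or more, had a median of -0.25. In 7 of them (77.8%) all 8KR arrays lay below all wild type arrays, against 40.3% of genes with a mean above 10.0. Cox5a, which lies on the matrix side of the enzyme, had 10.36, 10.49 and 10.55 in 8KR cells, against 10.87, 10.88 and 11.05 in wild type cells. It fell by 0.47 on the log2 scale (95% interval -0.69 to -0.24, limma's adjusted p = 0.0497), or fell by 27.8%. Cox6c, a small membrane subunit, had 10.91, 10.94 and 10.96 in 8KR cells, against 11.28, 11.26 and 11.31 in wild type cells, the tightest replicates among the called members of this complex. It fell by 0.35 (95% interval -0.51 to -0.18, limma's adjusted p = 0.0474), and its second probe set fell by 0.36 (limma's adjusted p = 0.0439).

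The other widely expressed subunits of complex IV were Cox8a (-0.30), Cox7a2 (-0.30), Cox6a1 (-0.25), Cox7b (-0.25) and Cox4i1 (-0.23), none called, with adjusted p of 0.0750 to 0.182 in limma. Cox4i1, the common form of the subunit that binds ATP, had 10.70, 10.80 and 10.64 in 8KR cells against 10.95, 10.94 and 10.93 in wild type cells. Cox6b1 and Cox5b stood apart from these. Cox6b1, which faces the intermembrane space and was the brightest of complex IV, had 11.86, 11.90 and 11.90 in 8KR cells against 11.81, 11.88 and 11.86 in wild type cells (95% interval of the difference -0.13 to 0.20). Cox5b, which binds zinc, differed by 0.01 (95% interval -0.21 to 0.23). Cox7a2l, a factor that joins complexes III and IV, differed by 0.03 on its brightest probe set and by 0.18 on the probe set of its own chromosome, where all 8KR arrays were higher (limma's adjusted p = 0.347).

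The tissue-restricted isoforms of complex IV were dim and did not separate the groups. Their 6 tested genes had means of 3.73 to 6.22, a median difference of -0.03, overlapping arrays in every case and standard errors of 0.07 to 0.18. Cox6a2, the heart and muscle form, had 6.15, 5.96 and 6.15 in 8KR cells against 6.59, 6.04 and 6.46 in wild type cells (-0.28, limma's adjusted p = 0.402). Cox8b, a muscle and brown fat form in the mouse, differed by -0.22, Cox6b2, a testis form, by -0.07, Cox4i2, the lung form, by 0.03, and Cox7a1, the heart and muscle form, by 0.04. Cox7b2 had means of 2.93 in 8KR cells and 2.58 in wild type cells, below the filter, and was not tested. In 4 isoform pairs, Cox4i1 and Cox4i2, Cox6a1 and Cox6a2, Cox7a2 and Cox7a1, and Cox8a and Cox8b, the widely expressed gene had separated arrays and the restricted gene had overlapping arrays, whereas in the pair Cox6b1 and Cox6b2 both genes had overlapping arrays. The interval of Cox7a1, -0.41 to 0.48, holds the difference measured for Cox7a2.

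**Figure D4:**
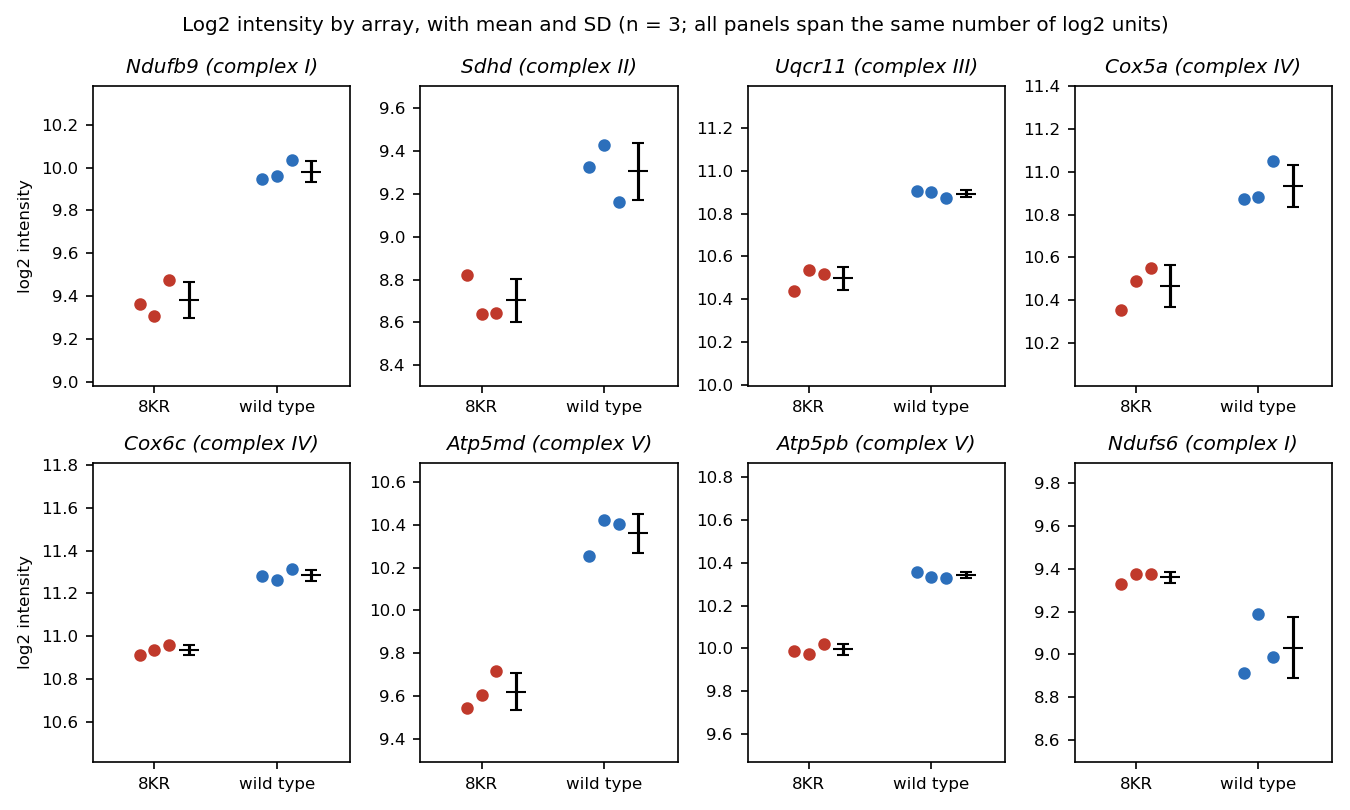
Log2 intensity on each array (vertical axis) of the 7 called members and of Ndufs6, the member with the largest positive difference, with 8KR arrays (red) left of wild type arrays (blue) and the mean and SD of each group (n = 3) in black beside its points. For the called members every 8KR array lies below every wild type array, and for Ndufs6 the 8KR arrays, from 9.33 to 9.38, lie above the wild type arrays, from 8.91 to 9.19.

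Complex V, the ATP synthase, had 16 of 17 genes lower and a median of -0.16. In 14 genes (82.4%) the arrays did not overlap in that direction, against 40.3% of genes with a mean above 10.0. Atp5md, a small subunit of the membrane sector that takes part in dimers of the enzyme, had the largest difference of all members. Its intensities were 9.54, 9.60 and 9.71 in 8KR cells, against 10.26, 10.42 and 10.40 in wild type cells. It fell by 0.74 on the log2 scale, or fell by 40.1% in intensity (95% interval -0.95 to -0.52, limma's adjusted p = 0.0128). All 3 of its probe sets were called, with differences of -0.75 to -0.68, and the one filed with the gene's own chromosome gave -0.75 (limma's adjusted p = 0.0225).

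Atp5pb, the b subunit of the peripheral stalk, was the second called gene of complex V, on 1 of its 2 probe sets. That probe set read 9.99, 9.98 and 10.02 in 8KR cells, against 10.36, 10.33 and 10.33 in wild type cells, and fell by 0.35 on the log2 scale (95% interval -0.51 to -0.18, limma's adjusted p = 0.0474). The probe set filed with the gene's own chromosome read 9.30, 9.26 and 9.26 in 8KR cells, against 9.43, 9.41 and 9.53 in wild type cells. There the groups were also apart, but the difference was -0.18 and was not called (limma's adjusted p = 0.235). The other stalk subunits were Atp5o (-0.15), Atp5j (-0.10) and Atp5h (-0.10), of which Atp5h had overlapping arrays.

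The c ring and the small membrane subunits of complex V lay lower in every member. The c ring turns with the proton flow and is built from the identical mature product of Atp5g1, Atp5g2 and Atp5g3, whose differences were -0.29, -0.23 and -0.24. Atp5g1 had 10.99, 11.03 and 11.07 in 8KR cells, against 11.31, 11.32 and 11.33 in wild type cells (limma's adjusted p = 0.0752). Atp5l, the g subunit, had 11.26, 11.25 and 11.26 in 8KR cells, against 11.50, 11.60 and 11.59 in wild type cells (difference -0.31, limma's adjusted p = 0.0713), and its 6 probe sets gave -0.34 to -0.29 with no call. Atp5j2 (-0.18) and Atp5k (-0.16) had separated arrays, and those of Atp5mpl (-0.05) overlapped.

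The F1 head of complex V, which makes ATP, was divided. Its gamma, delta, epsilon and beta subunits were lower with no overlap of arrays: Atp5e (-0.25), Atp5c1 (-0.15), Atp5d (-0.15) and Atp5b (-0.12). Atp5a1, which encodes the alpha subunit and forms the catalytic ring with beta, had 10.57, 10.64 and 10.64 in 8KR cells, against 10.51, 10.40 and 10.49 in wild type cells. All 8KR arrays were higher, with a difference of 0.15 that was not called (limma's adjusted p = 0.328). Across the series of 5 F1 genes limma called 0, and 1 (Atp5e) had an unadjusted p under 0.05.

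Genes of some chromosomes differed together between the groups, and the members' differences followed their chromosomes in part. Chromosomes were taken from RefSeq gene positions (GRCm38.p6), and the grouping was made after the medians were seen. On chromosomes 9, 15 and 19, where the other tested genes had medians of -0.11 to -0.10, all 15 members were lower, and 5 of the 7 called members (Sdhd, Cox5a, Ndufb9, Cox6c and Atp5md) lie there. On chromosomes 13, 17 and 18, with medians of 0.09 to 0.17, 3 of 13 members were lower, and Ndufs6, Sdha, Uqcrb and Atp5a1 are among the others. Elsewhere 43 of 53 members were lower and 2 were called. What lies behind the shifts of whole chromosomes was not tested.

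Set against the median of the other tested genes of their chromosome, 74 of 81 members were lower, with a median of -0.14. This held for 31 of 35 genes of complex I, 2 of 4 of complex II, 9 of 9 of complex III, 15 of 16 of complex IV and 17 of 17 of complex V, and on chromosomes 13, 17 and 18 for 11 of 13. By definition, each median splits the other genes of its chromosome evenly. The medians were taken over genes of all intensities, so the brightness of the members was not matched. Called members lay below their chromosome's median by amounts given here as differences: Atp5md -0.64, Ndufb9 -0.50, Sdhd -0.49, Uqcr11 -0.41, Cox5a -0.35, Atp5pb -0.35 and Cox6c -0.25. Ndufs6 and Sdha remained above it, and Atp5a1 and Uqcrb did not.

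**Figure D5:**
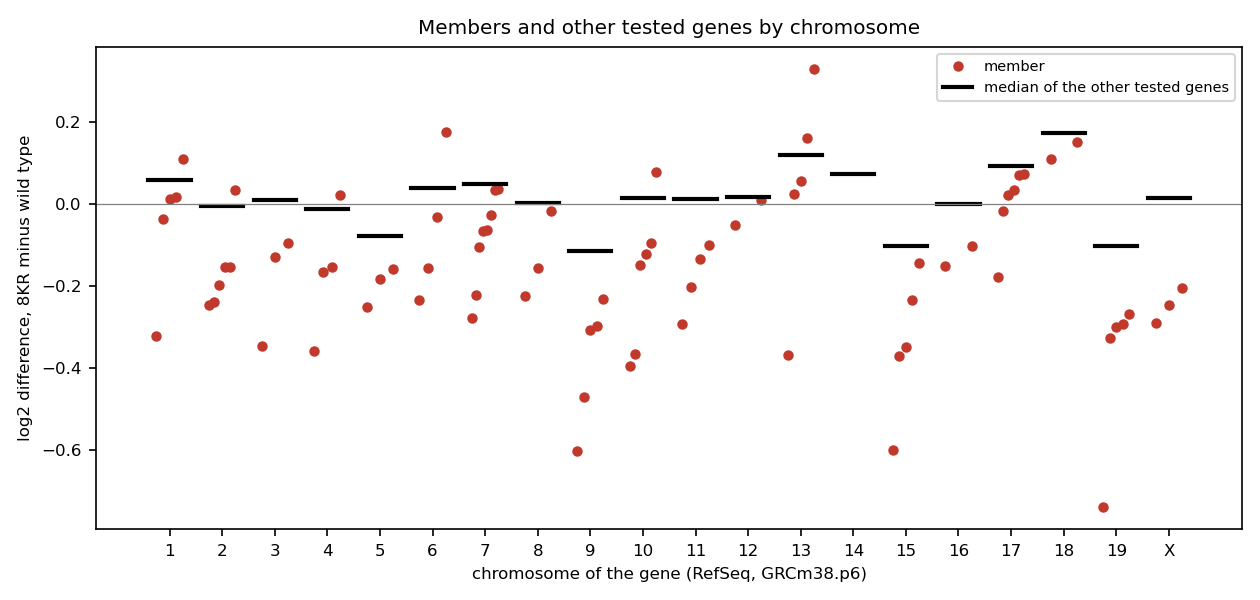
Log2 difference, 8KR minus wild type (vertical axis), of each tested member (points) by the chromosome of its gene (horizontal axis), with the median of the other tested genes of that chromosome as a bar. The bars run from -0.11 on chromosome 9 to 0.17 on chromosome 18, and 74 of the 81 members lie below the bar of their chromosome.

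The tested genes nearest to each member, 10 on each side, were also read. Over all 81 members the median of these neighbourhood medians was 0.0069, against 0.0070 over all genes. Around the called members the neighbourhood median was -0.18 for Ndufb9, Sdhd and Atp5md, -0.15 for Cox6c, -0.11 for Cox5a, 0.02 for Atp5pb and 0.12 for Uqcr11, and the same measure ran from -0.16 to 0.18 between the 5th and 95th percentiles of all genes. Called genes lay among these neighbours for every called member except Atp5pb. Tatdn1, the next gene to Ndufb9, fell by 0.63. Around Atp5md, Pdcd11 fell by 0.51, Slk fell by 0.56 and Sh3pxd2a fell by 1.68. Around Sdhd, Cryab fell by 1.08 and 1110032A03Rik fell by 1.10. Around Cox6c, Rida fell by 1.04 and Matn2 fell by 0.65, and around Cox5a, Commd4 fell by 0.62. Around Uqcr11, by contrast, Mex3d rose by 0.73, Tcf3 by 0.54 and Scamp4 by 0.51. Genes outside the members had called neighbours as well, and whether they are more frequent around members was not tested.

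Other genes that build or serve the respiratory chain were read from lists, which were drawn up with results of these data known. Over 103 tested genes outside the naming rule, 9 fell and 1 rose (9.71% called, against 5.39% of all genes). In 82 the 8KR mean was the lower one, and the median difference was -0.15, close to that of the members. The share called was 5.88% for assembly factors of complex I, near that of all genes. It was 22.2% for those of complexes II and III and 15.8% for those of complex IV, in small lists. Among 17 assembly factors of complex I, 1 fell and 0 rose: Ecsit, with 6.01, 5.82 and 6.23 in 8KR cells against 6.81, 6.54 and 6.79 in wild type cells (difference -0.69, limma's adjusted p = 0.0493). Among 9 factors of complexes II and III, 2 fell: Sdhaf2, which helps to attach flavin to Sdha, by 0.56 and Uqcc3, needed for cytochrome b, by 0.69, although the median of these 9 was 0.06. Among 19 factors of complex IV, 2 fell (Cox14 by 0.55 and Cmc1 by 0.52) and 1 rose. That gene was Lrpprc, which stabilizes mitochondrial mRNA, with 8.88, 8.78 and 8.94 in 8KR cells against 8.37, 8.27 and 8.43 in wild type cells (difference 0.51, limma's adjusted p = 0.0312). Among 3 factors of complex V, including Atpaf1 (-0.41), limma called 0, and 0 had an unadjusted p under 0.05.

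A mixed list held carriers, enzymes that feed electrons to ubiquinone and the Coq and Pdss genes of ubiquinone synthesis and handling. It also held Ndufab1, a complex I subunit whose symbol the naming rule does not match. In this list 18 of 21 genes were lower, with a median of -0.18 and 2 called (9.52%). Slc25a5, which exchanges ADP for ATP, had 10.12, 10.15 and 10.24 in 8KR cells against 10.60, 10.56 and 10.62 in wild type cells and fell by 0.42 (limma's adjusted p = 0.0361). Sqor, which passes electrons from sulfide to ubiquinone, fell by 0.59 (limma's adjusted p = 0.0158). Cytochrome c itself, Cycs, differed by -0.23 and was not called. In the citric acid cycle 15 of 17 genes were lower, with a median of -0.16. Of these genes 1 was called (5.88%, near the 5.39% of all genes). Idh3a, a subunit of NAD-dependent isocitrate dehydrogenase, had 6.88, 7.02 and 6.97 in 8KR cells against 7.56, 7.82 and 7.59 in wild type cells and fell by 0.70 (limma's adjusted p = 0.0201). The mitochondrially encoded subunits read here, COX2 (-0.07) and ND3 (-0.04), had overlapping arrays, and limma called 0 of 2, with 0 at an unadjusted p under 0.05.

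Of 15 regulators of respiratory chain genes, 1 was called (6.67%, near the 5.39% of all genes). At an unadjusted p under 0.05 in limma, 3 were lower, the called gene included, and 1 was higher. Ppargc1a, a coactivator of mitochondrial gene expression, had 4.10, 3.99 and 4.32 in 8KR cells, against 7.28, 7.49 and 7.36 in wild type cells, and fell by 3.24 on the log2 scale (limma's adjusted p = 0.000468). The groups were separated by far more than their spread. The factors whose letters were searched in the promoters differed by 0.09 (Nrf1), -0.15 (Gabpa), -0.06 (Esrra) and -0.05 (Yy1), all with overlapping arrays. Tfam, which packs mitochondrial DNA and takes part in starting its transcription, differed by -0.32, also with overlap. Whether the level of Ppargc1a bears on the members' differences was not tested.

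The calls were sensitive to the number of arrays and to the fit. The direction of the called members could not change with 1 array left out. All their 8KR arrays lay below all their wild type arrays, so only the size of the difference is informative there. With 1 array left out at a time, 2 members (Atp5md and Ndufb9) were called without 8KR replicate 3, 1 (Atp5md) without wild type replicate 1, and 0 without each of the other 4 arrays. Over these 6 fits the difference ran from -0.79 to -0.70 for Atp5md, from -0.64 to -0.56 for Ndufb9, from -0.67 to -0.54 for Sdhd, from -0.51 to -0.41 for Cox5a, and within -0.41 to -0.34 for Uqcr11, Cox6c and Atp5pb. Without 8KR replicate 3 the median of complex IV was -0.08, a fit in which Cox7b2 also entered, and without wild type replicate 3 that of complex I was -0.07, so the order of the complexes by their medians changes with the arrays used. When limma's variance was allowed to depend on intensity, 28 of 81 members were called, 27 lower and 1 (Ndufs6) higher. In that fit 1528 of all 17145 genes (8.91%) were called.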

How the data were processed

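Gene expression was measured on 6 arrays, 3 of 8KR and 3 of wild type NIH/3T3 cells, grouped by the genotype in the sample labels. The deposited table holds log2 intensities for 35557 probe sets, which the authors normalized and log2 scaled. No source used here names the normalization method or a genome build, and Affymetrix Power Tools 1.12.0 is the tool in the submitters' processing notes. Any difference between groups that normalization removed or added is not visible in these values.

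Of the 35557 probe sets, 7014 with no group mean above 3.0 were removed, as in the study's methods, and the other 28543 were fitted by limma's lmFit and eBayes without covariates (limma 3.58.1, R 4.3.3), with Benjamini-Hochberg adjustment over all 28543. The platform annotation gave 1 symbol for 21789 probe sets, several for 1621 and none for 12147, and only the first kind was named. RefSeq tables (GRCm38.p6) gave chromosomes, neighbours and promoters. The procedure was also tested on simulated data. The members and all gene lists were chosen with earlier results of these data known, and the roles used to order the members were written after the values were seen. The rule for named genes took the called members, those at an unadjusted p under 0.05, the extremes and the brightest gene of each complex, isoform pairs, the 3 smallest adjusted p of each other list and genes below the filter. Not every gene that the rule took from the other lists is printed. Cycs, Tfam, Nrf1, Gabpa, Esrra and Yy1 were named outside the rule. Further members were named as a full account of each complex, after their values were seen.

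Alternative fits changed the filter, rescaled the arrays, let the variance follow intensity, took the replicate number as a block, changed the probe set that stands for a gene or left out 1 array. Positions on chromosomes and the filing of probe sets were examined after seeing the data. The number of arrays limits the precision. Tables were handled in Python 3.11.15 with pandas 2.3.3, and figures were drawn with matplotlib 3.10.9.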

Additional observations from a re-analysis of the deposited data

How the results depend on the processing

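The median difference of the 81 members was negative under every alternative run. It was -0.15 as reported and -0.1825 with the array medians aligned, where 67 of 81 members were lower. Complex medians moved by more than the spread between arrays only for complexes III and IV against the chromosome median, to -0.1529 and -0.1773, and with an array left out. Over those 6 fits the medians ran from -0.1327 to -0.0692 for complex I, from -0.2347 to -0.0810 for complex IV and from -0.2013 to -0.1560 for complex V. The median of all genes, 0.0088, was 0.0004 with the filter at 5.0, -0.0083 after quantile normalization, -0.0199 with array medians aligned and 0.0043 to 0.0104 with an array left out.

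Counts of called genes depended on the fit far more. Among members, 7 of 81 were called. With 81 tested, the count was 28 with an intensity trend in the variance and 12 over single-symbol probe sets only. The mean of all probe sets of a gene gave 4. With the filter at 5.0 the count was 18 of 75, with no filter 3 of 82, and with an array left out 0 to 2. The 7 were all among the 18, the 28 and the 12. Among all genes, 924 of 17145 (5.39%) were called. The count was 1736 of 9882 (17.6%) with the filter at 5.0 and 692 of 19938 (3.47%) with no filter. It was 1528 (8.91%) with the trend, 1638 (9.55%) over single-symbol probe sets and 274 to 293 with an array left out. In the other lists, 10 of 103 were called, and 17 with the trend and 1 to 2 with an array left out. With the replicate number as a block, 0 members, 63 genes and 1 gene of the other lists were called. Over all probe sets tested, same-numbered arrays did not deviate together (correlations of -0.0113, 0.00858 and -0.000484). That does not settle whether the number pairs the samples for the members. Their median deviations rose with the replicate number in both groups, from -0.08 to -0.05 in 8KR cells and from 0.05 to 0.12 in wild type cells.

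With an array left out, 10 of the 81 members changed sign in at least 1 fit, all with reported differences within 0.037 of 0 and none called. They were Cox4i2 (-0.0094 to 0.0883), Cox5b, Cox7a1 (-0.1265 to 0.2011), Cox8c, Ndufa7, Ndufb3, Ndufb7, Ndufs1, Ndufs4 and Sdhb. Of the other genes named by the rule, ND3 did so (-0.0759 to 0.0007).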
